A study of Mus musculus with 8 samples.

Results

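The zinc transporters and metallothioneins described here are 10 genes, namely the importers Slc39a8, Slc39a1, Slc39a4, Slc39a6, Slc39a7, Slc39a10 and Slc39a14, the exporter Slc30a1 and the metallothioneins Mt1 and Mt2. They were picked by gene symbol, and the group was chosen for the large difference of Slc39a8 between the groups compared below. The array carried 15 probes for these 10 genes, of 25697 probes that name 16593 genes. Because the KO to CON contrast was used to choose the group, the values of the members are given as a description, without a test of their own.

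Total RNA came from microdissected maturation (Mat) stage tissue of the lower incisors of 10 wk old mice on a C57BL/6 background. KO mice were MED1 fl/fl with a Cre driven by K14 (keratin 14), and CON mice were littermates with MED1 fl/fl alleles and no Cre, so both groups carried the floxed alleles. The labels state that KO incisors generated hairs and lacked enamel, whereas CON incisors formed enamel. Tissue of 3 mice was combined, and 4 CON and 4 KO arrays (Illumina MouseRef-8 bead arrays) were measured. The Krt14 promoter drives Cre in epithelia, so cells of the dissected tissue that never express Krt14 would keep Med1. Nothing in the labels says that each array had its own pool of mice. The paper's methods mention 4 samples, each combining tissue of 3 mice, but give n = 3 for the array comparison, so the point is not settled. The p-values set the group difference against the scatter of these 8 samples within their groups, and part of that scatter may be technical.

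Zinc enters the cytosol through ZIP proteins, which the Slc39 genes encode, and leaves it, to the outside or into vesicles and organelles, through ZnT proteins of the Slc30 family. Metallothioneins are small cysteine-rich proteins that bind zinc and copper in the cell. When free zinc rises, the zinc finger factor Mtf1 binds metal response elements and activates Mt1, Mt2 and Slc30a1. Ameloblasts, the enamel-forming epithelial cells, secrete Mmp20, a zinc-dependent protease. Alkaline phosphatase (Alpl), also a zinc enzyme, serves in the paper as a marker of the stratum intermedium, another layer of the dental epithelium.

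The promoters of the genes that Mtf1 is known to drive are shown first, since 3 members, Mt2, Mt1 and Slc30a1, belong to them, together with a promoter of Slc39a8 and that of Mt4, whose level moved the other way. Sequences are from RefSeq (GRCm38.p6), 5′ to 3′ on the plus strand, from 250 bases before to 50 bases after an annotated start. Capitals mark matches to the core of the metal response element, searched as TGCACNC or TGCGCNC on both strands, so that a match on the other strand reads GNGTGCA or GNGCGCA.
Mt2 (chr8:94172368-94172667): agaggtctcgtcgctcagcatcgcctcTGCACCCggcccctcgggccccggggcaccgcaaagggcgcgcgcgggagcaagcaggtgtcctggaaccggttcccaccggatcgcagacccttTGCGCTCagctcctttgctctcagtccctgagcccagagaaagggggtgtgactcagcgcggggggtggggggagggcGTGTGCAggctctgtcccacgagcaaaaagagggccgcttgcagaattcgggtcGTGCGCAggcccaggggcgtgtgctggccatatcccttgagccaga
Mt1 (chr8:94178839-94179138): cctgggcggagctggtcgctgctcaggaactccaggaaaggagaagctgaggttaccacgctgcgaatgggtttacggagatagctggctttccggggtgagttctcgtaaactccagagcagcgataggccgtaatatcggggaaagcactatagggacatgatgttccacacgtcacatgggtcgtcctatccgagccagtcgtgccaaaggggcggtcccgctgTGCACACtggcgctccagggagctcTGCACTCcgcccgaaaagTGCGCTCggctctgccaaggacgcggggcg
Slc30a1 (chr1:191906531-191906830): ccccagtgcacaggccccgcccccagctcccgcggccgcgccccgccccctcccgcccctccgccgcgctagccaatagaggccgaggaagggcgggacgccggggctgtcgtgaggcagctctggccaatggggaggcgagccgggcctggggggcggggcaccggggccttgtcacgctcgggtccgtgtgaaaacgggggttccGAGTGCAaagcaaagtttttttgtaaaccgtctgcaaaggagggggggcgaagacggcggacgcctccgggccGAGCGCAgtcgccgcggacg
Slc39a8 (chr3:135825407-135825706): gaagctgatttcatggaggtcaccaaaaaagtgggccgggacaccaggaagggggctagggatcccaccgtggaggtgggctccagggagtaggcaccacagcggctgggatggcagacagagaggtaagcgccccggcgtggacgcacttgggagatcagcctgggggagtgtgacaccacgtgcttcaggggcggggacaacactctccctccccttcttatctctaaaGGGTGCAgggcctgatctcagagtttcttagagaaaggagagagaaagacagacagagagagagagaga
Mt4 (chr8:94136954-94137253): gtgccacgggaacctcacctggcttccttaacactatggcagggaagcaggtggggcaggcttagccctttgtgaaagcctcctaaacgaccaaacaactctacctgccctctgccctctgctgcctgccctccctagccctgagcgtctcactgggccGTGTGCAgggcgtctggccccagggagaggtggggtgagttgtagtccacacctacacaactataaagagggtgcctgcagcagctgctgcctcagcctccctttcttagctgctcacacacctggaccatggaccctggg

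The Mt2 window held 4 matches, between positions -223 and 4 from the start, and the Mt1 window held 3, between -23 and 20. The Slc30a1 window held 2 matches, at -43 and 30. Of the 2 windows of Slc39a8, the one shown held 1 match at -19 and the other held 0. The windows of Slc39a1, Slc39a7 and Slc39a10 held 0, and those of Mt3 and Mt4 held 1 each. Of all 32851 promoter windows 25.7% held at least 1 match, 1.97% held 3 or more and 0.517% held 4 or more. The windows shown for Mt1, Slc30a1 and Slc39a8 surround a start inside the span given to the gene, which is chr8:94178883-94180327 for Mt1, chr1:191906697-191913248 for Slc30a1 and chr3:135816882-135888572 for Slc39a8, and other starts of these genes are not covered. A match is a run of letters and says nothing of binding. Windows were at hand for 7 of the 10 members.

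The mean intensity of an array lay between 550.8 and 811.9, and 11554 to 13134 probes were detected. Arrays correlated at 0.992 to 0.993 within a group and at 0.911 to 0.923 between groups. The deleted gene Med1 was lower in KO by 0.76 ± 0.13 (SE, log2, limma adjusted p = 0.00075), at the 1 of its 4 probes that was tested. Where that probe lies relative to the floxed exons is not known here. Levels below are log2 values after background correction and quantile normalization, and each probe is compared only with itself.

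Other cell types of the tissue differed between the groups as well. The 5 ameloblast markers on the array were all detected. Their summed intensity was 38312 to 41042 in CON and 44942 to 52180 in KO. Ambn, Klk4 and Enam were higher (3 of 5), and Amelx (-0.25, log2 difference) and Mmp20 (0.09) did not pass the threshold. Klk4 rose by 0.65 ± 0.07 (SE), and passed under 19 of 19 alternatives. Most of the sum came from Ambn (mean intensity 26630 in CON and 30920 in KO). The Ambn call was lost with median scaling and with cyclic loess. In younger mice, the paper reports lower Klk4 and Mmp20 in KO at this stage, with ameloblastin and amelogenin unchanged. Whether KO tissue held more ameloblasts was not tested. Epidermal markers summed to 3082 to 4565 in CON and 48376 to 61464 in KO, with 5 of 5 higher, and macrophage markers to 2635 to 3372 and 22008 to 30922, also with 5 of 5 higher. Neutrophil markers (6 of 6 tested higher) lay at 11428 to 13359 and 27101 to 36250. Most of that sum came from S100a8 (mean intensity 6501 in CON and 18180 in KO) and S100a9 (1536 and 6578). The paper lists both, at a younger age, with genes of epidermal development raised in KO. The sum is therefore not particular to neutrophils. Skeletal muscle markers (5 of 5 higher) lay at 4809 to 6365 and 13832 to 18811. Odontoblast and bone markers summed to 18860 to 22467 in CON and 25555 to 31950 in KO. Of these, Bglap and Ibsp were higher, Col1a1 did not pass, and the odontoblast markers Dspp and Dmp1 were not detected on any array. Of the tested markers of T and B cells 3 of 3 were higher, of endothelium 2 of 3 and of erythroid cells 2 of 2, and the 1 tested melanocyte marker was lower. In bulk tissue, fewer cells of a type and less RNA per cell cannot be told apart, and the part of these cell types in the differences of the zinc genes was not tested.

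Slc39a8, also called ZIP8, imports zinc, manganese and iron across the plasma membrane. At its brighter probe the 4 CON arrays read 12.59, 12.74, 12.83 and 12.80 and the 4 KO arrays 9.97, 9.16, 9.38 and 9.21 (log2 level). Every KO value was under the lowest CON value, and KO replicate 1 was the highest of its group. The means were 12.74 ± 0.11 in CON and 9.43 ± 0.37 in KO (SD, n = 4), a difference of -3.31 ± 0.16 (SE), or 9.94-fold lower in KO. Before any correction the intensities were 5711 to 7858 in CON and 629.5 to 1048 in KO. The second, dimmer probe read 7.11, 6.85, 7.10 and 7.19 in CON and 5.02, 4.66, 5.09 and 5.37 in KO, a difference of -2.03 ± 0.14 (SE). It too separated the groups, but detection failed on 3 of the 4 KO arrays, so its KO values lie at background and the difference at this probe depends on the background correction (-0.80 without it). Among the tested genes, Slc39a8 had the 10th lowest difference.

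**Figure D1:**
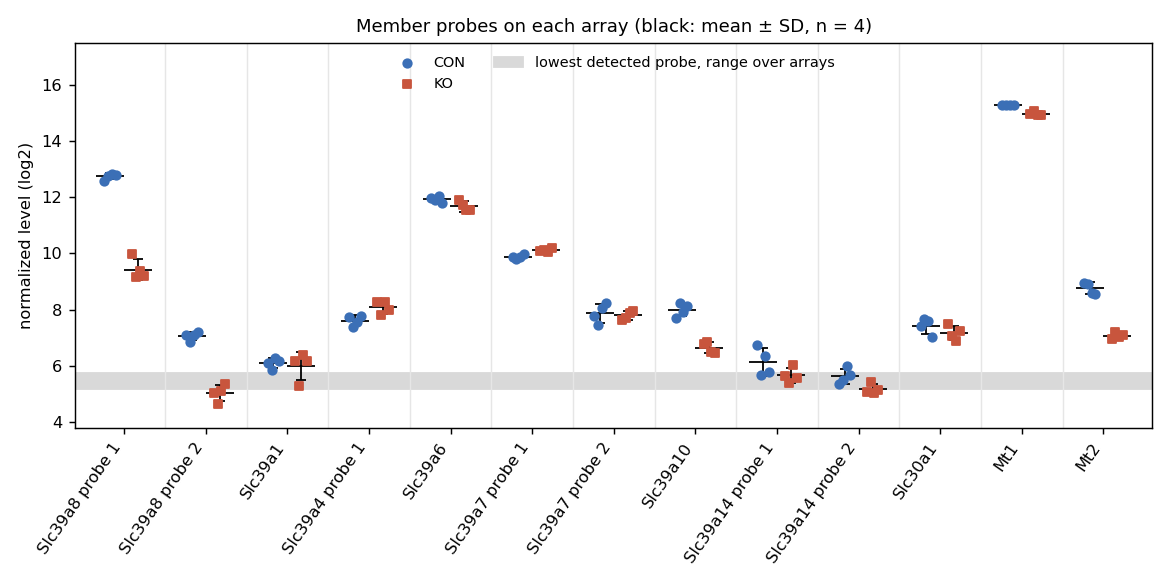
Log2 level (y axis) of the 13 tested member probes (x axis) on the 4 CON arrays (circles) and 4 KO arrays (squares), with mean and SD in black and the range of the lowest detected probe of each array as a gray band. Both Slc39a8 probes, Slc39a10 and Mt2 sit lower on every KO array than on any CON array, whereas Slc39a1, Slc39a6 and Slc30a1 overlap.

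Slc39a10 (ZIP10), a plasma membrane importer of zinc, was the other importer with a large difference. The CON arrays read 7.72, 8.24, 7.90 and 8.13 and the KO arrays 6.77, 6.86, 6.50 and 6.46. The groups did not overlap, and the difference was -1.35 ± 0.13 (SE), or 2.55-fold lower in KO, which shrank to -0.82 without background correction. Slc39a14 (ZIP14), the closest relative of Slc39a8 and a carrier of the same metals, was dim. Its first probe read 6.74, 5.66, 6.35 and 5.79 in CON and 5.64, 5.40, 6.04 and 5.56 in KO (difference -0.48 ± 0.23 SE). Its second probe was detected on 3 CON arrays and 1 KO array, with a difference of -0.47 ± 0.14 (SE) that was -0.14 without background correction. The groups overlapped at both Slc39a14 probes. Their CON means of 6.14 and 5.64 lay near the lowest detected level of the arrays (5.18 to 5.73). A fall as large as that of Slc39a8 could not have been seen there, so the 2 paralogs cannot be compared.

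Slc39a4 (ZIP4), the importer that takes up dietary zinc in the gut, was higher in KO at its detected probe. That probe read 7.75, 7.38, 7.55 and 7.78 in CON and 8.29, 7.81, 8.29 and 7.98 in KO. The KO arrays all lay above the CON arrays, although the closest values differ by little, and the difference was 0.48 ± 0.13 (SE), or 1.39-fold. A second Slc39a4 probe was not detected on any array. Slc39a7 (ZIP7), which releases zinc from the endoplasmic reticulum, had 3 probes that did not behave alike. The first read 9.88, 9.82, 9.87 and 9.97 in CON and 10.10, 10.11, 10.04 and 10.21 in KO, a difference of 0.24 ± 0.07 (SE) without overlap, which shrank to 0.08 with median scaling. The second overlapped (difference -0.07 ± 0.16 SE), and the third was not detected on any array.

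The remaining importers differed little. Slc39a6 (ZIP6), a plasma membrane importer related to Slc39a10, read 11.96, 11.90, 12.04 and 11.80 in CON and 11.92, 11.72, 11.53 and 11.53 in KO, with overlap and a difference of -0.25 ± 0.10 (SE). Slc39a1 (ZIP1), a widely expressed importer, read 6.11, 5.85, 6.28 and 6.16 in CON and 6.16, 5.29, 6.38 and 6.18 in KO. Its groups overlapped fully and its difference of -0.10 ± 0.21 (SE) changed sign without KO replicate 2 (0.14), the array with the lowest value, and under cyclic loess.

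Slc30a1 (ZnT1), the exporter of the plasma membrane and the member with 2 matches in its window, read 7.41, 7.67, 7.61 and 7.02 in CON and 7.48, 7.06, 6.90 and 7.23 in KO. The groups overlapped, and the difference was -0.26 ± 0.16 (SE).

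Mt2 was lower in KO. The CON arrays read 8.95, 8.93, 8.59 and 8.56 and the KO arrays 6.94, 7.21, 7.01 and 7.09. The groups stood apart by more than their spread, with means of 8.76 ± 0.21 and 7.06 ± 0.11 (SD, n = 4) and a difference of -1.70 ± 0.11 (SE), or 3.24-fold lower in KO. The intensities before correction were 500.6 to 539.9 in CON and 208.2 to 329.0 in KO.

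Mt1 was the brightest probe on all 4 CON arrays. Its intensities there were 41313, 42582, 41206 and 42493, against 30290, 34220, 28502 and 31050 in KO, where it ranked 8, 5, 11 and 11 among the probes. Quantile normalization gives the top probe of each array the same value, so Mt1 read 15.30 on every CON array and its SD of 0 there is a product of the method. The KO arrays read 14.98, 15.07, 14.92 and 14.92, a difference of -0.33 ± 0.07 (SE), or 1.26-fold lower. As a ratio to the mean intensity of the array, Mt1 was 61.0 to 69.9 in CON and 42.1 to 51.7 in KO, also without overlap. Median scaling gave a log2 difference of -0.60 and cyclic loess one of -0.39, so the direction held while the size depended on the scaling. In CON the intensity of Mt1 varied little, although the array mean ran from 595.5 to 696.5. Whether a signal this bright still follows the amount of RNA was not tested, so the fold may be understated.

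The other metallothioneins on the array, Mt3 and Mt4, which the choice of members left out, moved the other way. Mt3, a form best known from brain, rose from 5.57, 6.08, 5.95 and 5.51 in CON to 7.66, 7.37, 7.81 and 7.66 in KO, by 1.84 ± 0.14 (SE, limma adjusted p = 2.5e-06). Mt4, a form of stratified squamous epithelium, rose from 5.35, 5.40, 5.52 and 5.74 to 8.14, 8.03, 8.42 and 8.45, by 2.76 ± 0.12 (SE, limma adjusted p = 3.5e-08). Both were detected on 3 of the 4 CON arrays and all 4 KO arrays, and all KO arrays lay above all CON arrays. CON levels near background make these sizes depend on the background correction, with 0.92 for Mt3 and 1.46 for Mt4 in the normalized values the authors deposited. The 4 genes, which lie next to each other on chromosome 8, thus split into 2 that were lower and 2 that rose. The summed epidermal markers given above were higher on the same KO arrays.

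**Figure D2:**
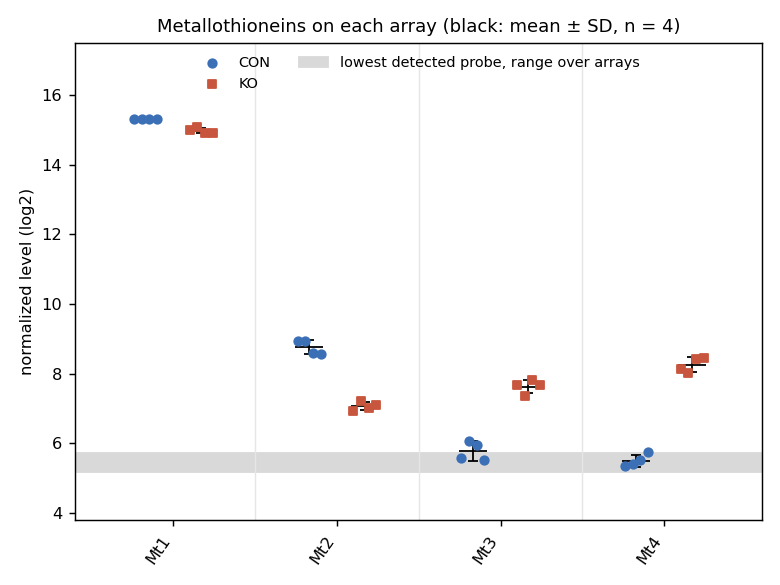
Log2 level (y axis) of the 4 metallothioneins (x axis) on the 4 CON arrays (circles) and 4 KO arrays (squares), with mean and SD in black and the detection range as a gray band. Mt1 and Mt2 were lower and Mt3 and Mt4 higher on every KO array than on any CON array.

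Counted over the members, 7 of the 13 tested probes had groups that did not overlap, beside 54.6% of all 12838 tested probes. At the 5% threshold of the fit across all probes, 2 member probes were higher and 6 lower in KO and 5 did not pass, beside 59.7% of tested probes that passed, 22.4% higher and 37.3% lower. Of the probes past the threshold 37.5% were higher, a share that cyclic loess moved to 56.7%. By gene, with the brightest tested probe for each, 2 of the 10 were higher, 4 lower and 4 not past, beside 60.9% of 9085 genes, 24.4% higher and 36.5% lower. The median log2 difference was -0.29 over the members and -0.12 over all tested genes. Because the members were selected on this contrast, nothing is read from these counts.

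Outside the members, the other zinc importers and exporters showed small differences. Of 3 tested ZIP genes, Slc39a3 (ZIP3) fell by 0.50 ± 0.12 (SE, limma adjusted p = 0.0043), and Slc39a11 (0.23 ± 0.10) and Slc39a13 (0.16 ± 0.08) did not pass. Of 4 tested ZnT genes, Slc30a7, which fills the early secretory pathway with zinc, rose by 0.37 ± 0.07 (SE, adjusted p = 0.0011) and Slc30a9 fell by 0.47 ± 0.12 (SE, adjusted p = 0.0060). Slc30a5 (0.09 ± 0.08), a partner of Slc30a6 in the secretory pathway, and Slc30a6 (-0.13 ± 0.09) did not pass. The fall of Slc39a3 and of Slc30a9 no longer passed with cyclic loess, nor the rise of Slc30a7 with median scaling. Slc39a5, Slc39a12, Slc30a3, Slc30a8 and Slc30a10 were not detected on any array, and Slc30a4 only on 2 KO arrays.

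**Figure D3:**
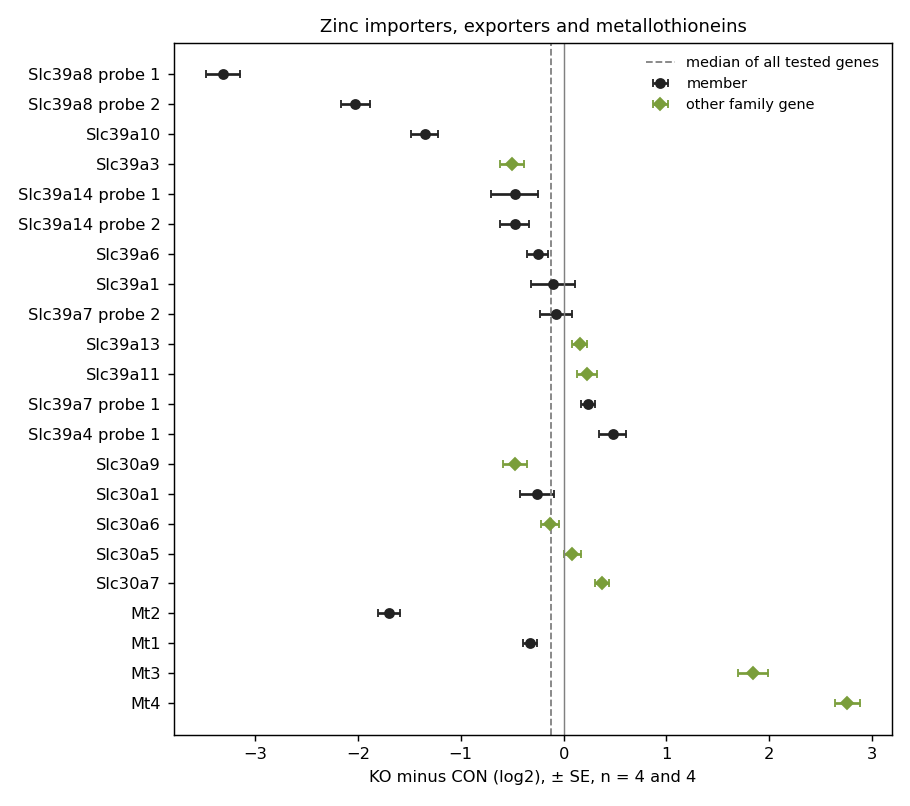
KO minus CON difference (log2, x axis) with its SE for each tested probe of the members (circles) and for the other tested ZIP, ZnT and metallothionein genes (diamonds), with the median of all tested genes as a dashed line. Slc39a8, Slc39a10 and Mt2 lie farthest to the left and Mt3 and Mt4 farthest to the right.

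Mtf1, the zinc sensor named above, was not detected on any array (its level in the 2 groups was 5.03 ± 0.31 and 4.82 ± 0.12, SD, n = 4). Of 4 tested further targets reported for it, Selenoh, a selenoprotein, rose by 0.25 ± 0.08 (SE, adjusted p = 0.023) and Csrp1, a LIM protein, fell by 0.35 ± 0.09 (SE, adjusted p = 0.0074), while Selenow and Ndrg1 did not pass. The median of the list was 0.05. The call for Selenoh was lost under 5 of 19 alternatives, 4 of which left out an array.

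Among transporters of manganese, iron and copper, metals that overlap with the cargo of Slc39a8, 2 of 12 tested genes rose and 6 fell, with a median of -0.27. Over all tested genes 24.4% were higher and 36.5% lower, with a median of -0.12. Slc11a1 (Nramp1), the metal transporter of macrophage phagosomes, rose from 8.63 ± 0.06 to 11.74 ± 0.17 (SD, n = 4), by 3.12 ± 0.09 (SE, limma adjusted p = 2.2e-09). Macrophage markers were higher on the same arrays, as given above. Slc40a1 (ferroportin), the iron exporter, fell by 1.60 ± 0.16 (SE), and Tfrc, the transferrin receptor, fell by 0.91 ± 0.10 (SE). Slc11a2 (DMT1), which like Slc39a8 brings divalent metals into the cytosol, fell by 0.91 ± 0.10 (SE, limma adjusted p = 3.1e-05).

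Enzymes that hold zinc went in both directions. Of 12 tested, 4 rose, 3 fell and 5 did not pass, with a median of 0.08, beside 24.4% of all tested genes higher and 36.5% lower. Mmp9, a gelatinase, rose by 2.55 ± 0.10, Mmp13, a collagenase, by 0.91 ± 0.08, and Adam17, a sheddase, by 0.79 ± 0.07 (SE). Car2, a cytosolic carbonic anhydrase that handles bicarbonate in acid-forming cells, fell by 1.24 ± 0.11 (SE, limma adjusted p = 5.2e-06). Alpl, the alkaline phosphatase introduced above, fell by 0.49 ± 0.10 (SE, limma adjusted p = 0.0018), and passed under 19 of 19 alternatives.

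Inducers of metallothioneins other than zinc were represented by 3 lists. Of 6 tested glucocorticoid response genes, Dusp1, a phosphatase of MAP kinases, rose by 1.31 ± 0.08 (SE). Tsc22d3 (GILZ) fell by 0.83 ± 0.07 and Sgk1 by 0.55 ± 0.10 (SE). Fkbp5 (-0.18), Per1 (0.03) and Klf9 (0.09) did not pass, and the receptor gene Nr3c1 was not detected on any array. Of 9 tested interleukin 6 and acute phase genes 6 rose and none fell, with a median of 0.95. The shares over all tested genes were 24.4% higher and 36.5% lower. Among the 6 that rose were the acute phase proteins Saa3 (6.50 ± 0.18) and Hp (2.81 ± 0.11), the cytokine Osm (3.76 ± 0.18) and the siderophore-binding Lcn2 (0.95 ± 0.07), each a log2 difference with its SE. Saa3 and Osm were detected on 1 of the 4 CON arrays, so their size depends on the background correction, with 4.40 for Saa3 and 2.04 for Osm in the deposited normalized values. Of 7 tested genes of the oxidative stress response, Slc7a11, the cystine importer, rose by 2.60 ± 0.11 (SE). Hmox1 fell by 0.51 ± 0.08, Srxn1 by 0.24 ± 0.08 and Keap1 by 0.26 ± 0.09 (SE), while Nfe2l2, Nqo1 and Gclm did not pass. Keap1 passed under 12 of 19 alternatives and Srxn1 under 15 of 19, and both calls were lost with cyclic loess and when single arrays were left out. In the interleukin 6 list, Il6 itself was not detected on any array. Il6st (-0.06 ± 0.15), Stat3 (0.18 ± 0.08) and Cebpb (-0.06 ± 0.07, SE) did not pass. Whether any of the 3 lists bears on the lower Mt1 and Mt2 was not tested.

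Genes whose level followed that of Slc39a8 over the 8 arrays were named by Pearson's r among 7814 genes detected on all arrays. The closest were Krt42, a keratin (r = 0.999), Lrp11 (0.999), Wbp2 (0.999), Fuom (0.999) and Col26a1 (0.998). For Mt1 they were Dolk (0.994), Wasl (0.993), Fis1 (0.993), H4c11 (0.992) and Ubr1 (0.991). The 8 arrays are 2 groups that stand far apart, and 1596 genes for Slc39a8 and 1362 for Mt1 had r over 0.9, so these names are a description of 8 points that share 2 conditions. The differences of the 5 genes closest to Slc39a8 lay between -3.96 (Krt42) and -0.76 (Wbp2).

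**Figure D4:**
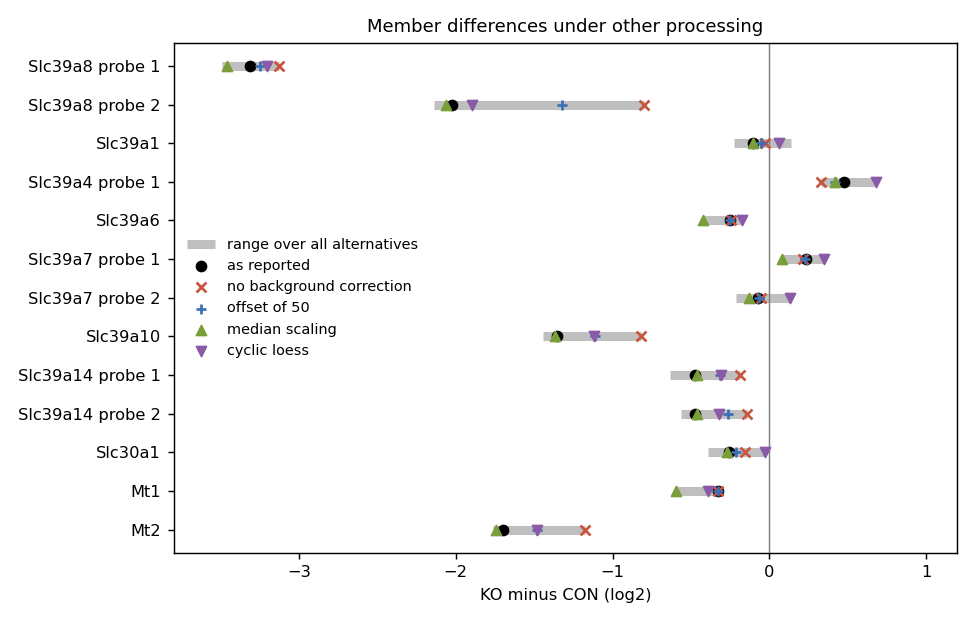
KO minus CON difference (log2, x axis) of each tested member probe as reported (black circle) and under 4 other processing choices, with the range over all alternatives as a gray bar. The bars of Slc39a8, Slc39a6, Slc39a10, Slc39a14 (both probes), Slc30a1, Mt1 and Mt2 stay below 0, and that of Slc30a1 comes close to 0 (-0.03). Those of Slc39a4 and of the first Slc39a7 probe stay above 0, whereas those of Slc39a1 and of the second Slc39a7 probe cross 0. The second Slc39a8 probe ranges from -2.14 to -0.80.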

How the data were processed

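Maturation stage incisor tissue of 4 CON and 4 KO samples was profiled on Illumina MouseRef-8 arrays. The authors read the arrays out in GenomeStudio (named in the submitters' processing notes, version not given in the sources used here) and deposited linear intensity values per probe without normalization between arrays, each with a detection p-value. The authors also deposited intensity values normalized in GenomeStudio. The number of arrays limits the precision, since arrays carry no counts.

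Arrays were grouped by their labels. The unnormalized intensities were processed in R 4.3.3 with the neqc function of limma 3.58.1 (background from the detection p-values, offset of 16, quantile normalization, log2). A probe entered the test when its detection p-value was under 0.01 in 4 or more of the 8 arrays. KO and CON were compared with lmFit and eBayes, two-sided, without covariates, and all adjusted p-values come from this limma fit after Benjamini and Hochberg over 12838 probes (threshold 5%). All 10 members had a tested probe, 13 of the 15 member probes were tested, and 10 were detected on all 8 arrays. Symbols came from the platform annotation, and gene positions and promoters from RefSeq (GRCm38.p6). Each gene is represented by its brightest tested probe.

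The members and lists were chosen with earlier results of these data known. Named were every member and at most 4 genes of each other list by the moderated statistic, plus genes needed beside a member or to read a list. The 5 genes most correlated with Slc39a8 and with Mt1 were named as well. Marker sums add deposited intensities, 1 probe per gene. The fit was tested on simulated data. Alternatives concerned the background (none, the deposited normalized values, or an offset of 50), the scaling (by the median or by cyclic loess), the filter on dim probes, the variance model, weights for arrays, a replicate block, the omission of single arrays, the methods' threshold, and averaging over the probes of a gene. Tables and figures were made with Python 3.11, pandas 2.3.3, numpy 2.4.6 and matplotlib 3.10.9.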

Additional observations from a re-analysis of the deposited data

Results flagged for a closer look

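Of 30 groups of 4 values, 1 held a value set apart from the rest. The second Slc39a4 probe read 4.60 on KO replicate 3 and between 4.73 and 4.75 on the other KO arrays. This probe was not detected on any array, and about 1 in 20 such groups is set apart by chance.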

How the results depend on the processing

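Of 244 member differences under alternatives, 226 moved by less than 1 SD, 11 moved more with the background settings and 7 with the scaling, and no difference past the threshold changed sign. The second Slc39a8 probe was -2.03 as reported, -0.80 without background correction, -0.80 in the deposited normalized values and -1.32 with an offset of 50, since its KO values lie at background. The first Slc39a8 probe stayed between -3.49 and -3.13, Slc39a10 between -1.44 and -0.82 and Mt2 between -1.76 and -1.18. The first Slc39a7 probe was no longer past the threshold with median scaling, and the second Slc39a14 probe was not without background correction, in the deposited normalized values or with cyclic loess. Slc39a6 passed under 9 of 19 alternatives, and Slc30a1 only without CON replicate 4 (-0.39).

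The probes past the threshold numbered 7665, 3594 at the methods' threshold (unadjusted p under 0.005 and over 1.5-fold), and 7065 to 7376 when 1 array was left out. With cyclic loess 3731 were higher and 2850 lower in KO in place of 2878 and 4787, and the median of all probes was 0.02 in place of -0.14 (-0.22 with median scaling). Over the lists outside the members, cell type markers left out and inducers of metallothioneins included, 18 genes were higher and 17 lower. Cyclic loess gave 26 higher and 11 lower in their place, and median scaling 15 higher and 20 lower. The cause of these shifts was not tested. Samples with the same replicate number did not deviate together (correlations of -0.011 to 0.019), and the replicate block left 7390 probes past the threshold. Under it the first Slc39a14 probe passed.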
